A study of Mus musculus with 10 samples.

Results

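The core spliceosome and small nuclear ribonucleoprotein (snRNP) genes were described in Ptbp1-deficient and WT mouse dendritic cells. They were chosen by symbol, as every gene of the count table whose mouse symbol begins with Snrp, Snrnp, Sf3a, Sf3b, Prpf, Lsm or U2af, leaving out symbols that contain -ps. This gave 58 genes of the 19178 in the table. Of these, 57 passed the filter on low counts and were tested, and the one that did not pass was Lsmem2, annotated as a non-coding RNA gene and taken in by its prefix alone. Another member, Snrpert, is annotated as a processed pseudogene, which left 56 tested protein-coding genes. Snrpn and Lsmem1 also fit the symbols and were not analysed here. The symbol rule itself uses no measured value, but the members were chosen with earlier results of these data known.

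The series holds 10 libraries of poly(A) RNA from dendritic cells of mice aged 8 to 10 weeks, 5 labelled Ptbp1 deficient and 5 labelled WT. The labels name neither the altered allele nor the cells in which it was altered, nor the tissue and sex. Whether different mice gave different libraries is not stated either. The p-values thus speak of the spread among these libraries, part of which may be technical. In bulk RNA such as this, more cells of a type and more RNA per cell cannot be told apart.

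The spliceosome removes introns from pre-mRNA and is rebuilt on each intron from RNA-protein particles. The U1 snRNP binds the 5′ splice site, U2AF reads the pyrimidine tract and AG of the 3′ splice site, and the U2 snRNP binds the branch site through SF3a and SF3b. The U4/U6.U5 tri-snRNP then joins and the Prp19 complex helps to activate it. A ring of Sm proteins sits on the U1, U2, U4 and U5 RNAs, and a related ring of LSm proteins sits on U6. PTBP1 itself is no core subunit. It binds pyrimidine tracts near regulated exons and is best known as a repressor of their inclusion.

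Promoter letters are shown for Snrnp27 and Lsm5, which had some of the largest rises, and for 3 of the members that fell, so that upstream sequence can be read beside the direction of change. Promoters from RefSeq (GRCm38.p6) were matched for 46 of the 58 members by symbol. The lines below hold up to 120 bases that lie before both the RefSeq start and the annotated 5′ end of the gene, written 5′ to 3′ on the gene's strand. Capitals mark the searched motifs named under the lines. The corresponding bases of Snrpe and Snrpb2, which rose, and of U2af1l4, which fell, held none of the searched motifs and are not printed. Snrnp27 (chr6:86684523-86684642 on the minus strand) and Lsm5 (chr6:56704711-56704830 on the minus strand) rose. Prpf40b (chr15:99294991-99295086 on the plus strand), Snrnp48 (chr13:38204818-38204937 on the plus strand) and Snrnp70 (chr7:45395743-45395862 on the minus strand) fell.
Snrnp27: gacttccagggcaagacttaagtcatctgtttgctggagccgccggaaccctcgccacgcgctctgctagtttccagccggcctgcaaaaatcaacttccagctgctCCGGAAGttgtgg
Lsm5: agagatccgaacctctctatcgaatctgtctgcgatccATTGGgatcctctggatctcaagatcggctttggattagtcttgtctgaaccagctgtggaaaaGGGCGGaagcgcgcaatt
Prpf40b: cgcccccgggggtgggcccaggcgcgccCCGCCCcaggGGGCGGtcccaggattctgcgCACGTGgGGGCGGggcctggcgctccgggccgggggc
Snrnp48: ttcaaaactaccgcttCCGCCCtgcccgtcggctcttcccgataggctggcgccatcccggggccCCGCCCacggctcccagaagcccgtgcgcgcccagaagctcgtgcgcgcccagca
Snrnp70: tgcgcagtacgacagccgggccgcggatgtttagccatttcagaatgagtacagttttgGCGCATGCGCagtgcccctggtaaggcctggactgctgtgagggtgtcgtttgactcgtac
The capitals are an ETS motif in Snrnp27, a CCAAT box and a GC box in Lsm5, GC boxes and an E-box in Prpf40b, GC boxes in Snrnp48 and an NRF1 motif in Snrnp70.

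Over the whole 250 bases before the start, on both strands, the ETS motif CCGGAAG was in 14 of the 46 matched members (30.4%). It was in 10 of the 22 matched members that rose, 3 of 18 that were tested and not called and 1 of 5 that fell. The same letters were in 7.05% of all 27025 promoters in the table and in 13.4% of the 11162 whose genes were tested. The GC box GGGCGG was in 58.7% of members and 55.6% of the promoters of tested genes. The CCAAT box, searched as CCAAT, was in 37.0% and 36.1%, and CACGTG, the E-box, in 6.52% and 8.16%. The NRF1 motif was in 1 member, Snrnp70, TTTCCCGC, an E2F motif, in 1 and the TATA box TATAAA in 3, and the YY1 and interferon response motifs were in none. No base printed in capitals belongs to more than 1 motif. A match is a description of these letters and not a binding site.

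Depth and composition of the libraries were as follows. Counts assigned to genes totalled 61759378 to 92697815 in the deficient libraries and 50516163 to 66153758 in WT. Levels below are CPM, counts scaled to the size of the library with TMM factors, and means are given ± SD over 5 libraries, while ± after a log2 change is its SE. Ptbp1 stood at 73.2 to 75.7 CPM in the deficient libraries and at 259 to 312 CPM in WT, so that the deficient group kept 25.3% of the WT level (edgeR, adjusted p = 1.9e-09). All 16 dendritic cell markers were present, the lowest in the deficient group at a mean of 74.1 CPM and in WT at 100.78 CPM. Of these markers 6 rose and 4 fell. Xcr1, Irf8 and Clec9a were 3.21-fold, 1.94-fold and 1.59-fold higher, and Cd209a stood at 52.3% of WT. The other rises were Itgax (1.42-fold), H2-Aa (1.21-fold) and Zbtb46 (1.19-fold). The other falls were Dpp4, Ccr7 and Irf4, at 80.1%, 78.1% and 77.5% of WT, and Batf3 was among the markers not called. The part of these shifts in the members' differences was not tested. Of 17 macrophage markers 13 fell and none rose, and their summed level was 737 to 1487 CPM in deficient and 2068 to 5445 CPM in WT libraries, with no marker at 0. Of 13 B cell markers 10 fell (summed level 702 to 748 against 604 to 2147 CPM), and of 13 NK cell markers 8 rose (237 to 329.8 against 64.6 to 137 CPM). Of 9 plasmacytoid dendritic cell markers 6 fell, of 13 T cell markers 2 and of 9 neutrophil markers 1, and of 7 erythroid markers none was called. Without WT replicates 1 and 5 the marker calls differed: 8 T cell markers rose and 2 fell, 8 neutrophil markers rose and 1 fell, 2 B cell markers rose and 7 fell, and 13 NK cell markers rose. In that fit the plasmacytoid list had 3 higher and 6 lower. Among 30 cell cycle genes 30 rose, with a summed level of 2632 to 2873 against 1247 to 1696 CPM.

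Core spliceosome genes were more often higher than lower in the Ptbp1-deficient cells, by small amounts. At an adjusted p under 0.05 (edgeR's quasi-likelihood test, Benjamini-Hochberg adjustment over all 18248 genes tested), 29 of 57 members rose and 5 fell (50.9% and 8.77%), where 45% of all genes tested were called, 21.9% as higher and 23.1% as lower. Among genes within the members' range of mean CPM 54.1% were called, 27.6% as higher and 26.4% as lower. Rises ran from 1.09-fold to 1.56-fold with a median of 1.27-fold, and the fallen members stood at 72.5% to 91.2% of WT. The median log2 fold change of the 57 members was 0.18, beside -0.026 over all genes tested. The groups did not overlap for 28 members, of which 24 were higher and 4 lower. Over all genes tested they did not overlap for 33.4%, of which 17.2% were higher and 16.2% lower.

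The levels of single libraries moved with these counts. WT replicate 1 held the lowest WT value of 25 of the 29 risen members, and it also had the largest share of counts outside genes, 22.2% against 17.2% to 19.9% in the other WT libraries. Deficient replicate 2 held the lowest deficient value of 20 of the 29. Without WT replicates 1 and 5, the libraries with the most macrophage and B cell transcripts, 25 members rose and 6 fell, and the members' median was 0.11 on the log2 scale, where 21.7% of all genes rose and 22.3% fell. Without deficient replicates 1 and 2, which had the fewest macrophage transcripts, 26 rose and 5 fell, where 19.3% of all genes rose and 20.6% fell. Adjusting for the macrophage score (the mean log2 CPM of its markers) left 21 higher and 6 lower, where 17.1% of all genes were higher and 17.3% lower. Adjusting for the cell cycle score left 0 members called (edgeR), but genotype held 94.9% of that score's variance, and of all genes tested 14 were higher and 3 lower in that fit. The cell cycle level and the genotype therefore cannot be told apart in these libraries. The part of the other cell types' transcripts in the members' differences was not tested beyond these fits.

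**Figure D1:**
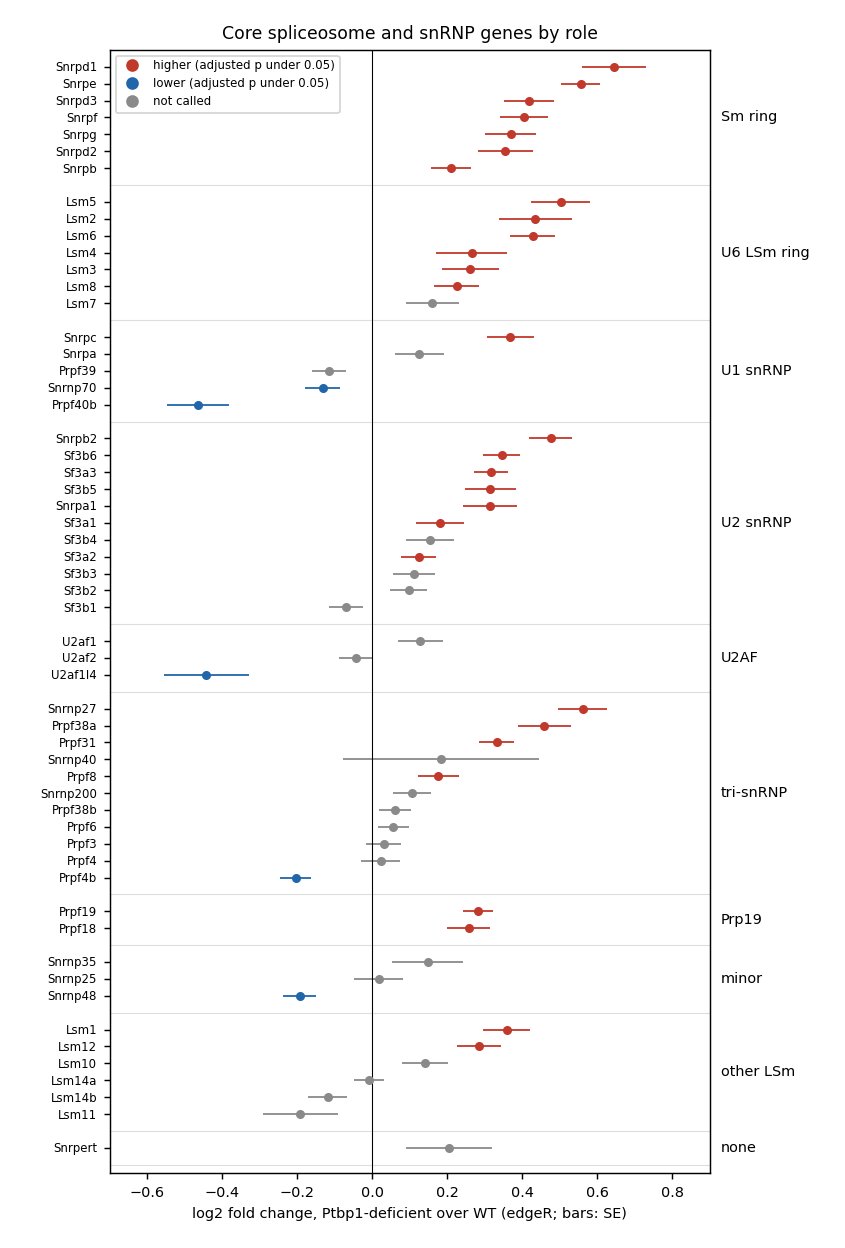
Log2 fold change of 56 of the 57 tested members (points, edgeR, deficient over WT) with its SE (bars), ordered within its role. All 7 Sm ring genes lie to the right of 0, and the 5 members that fell are spread over the U1, U2AF, tri-snRNP and minor spliceosome roles.

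All 7 measured genes of the Sm ring rose, where 21.9% of all genes rose. In each the deficient libraries lay above every WT library, where this held for 17.2% of all genes. The count was 7 also without WT replicates 1 and 5 and without deficient replicates 1 and 2. Adjusting for the macrophage score left 6, Snrpb losing its call. These small proteins close around the snRNA in the cytoplasm before the particle returns to the nucleus. Snrpd1, which encodes Sm D1 (chromosome 18), stood at 49.1, 45.9, 54.4, 55.3 and 54.3 CPM in deficient replicates 1 to 5 and at 26.3, 34.9, 35.4, 35.4 and 33.7 CPM in WT replicates 1 to 5. The groups were far apart, with WT replicate 1 the lowest of all (1.56-fold, 0.64 ± 0.0845 on the log2 scale, adjusted p = 8.9e-05). It was the largest rise among the members. Snrpe, which encodes Sm E (ENSMUSG00000090553, chromosome 1, 133603871 to 133610291, minus strand), stood at 69.6, 61.5, 71.9, 71.2 and 69.5 CPM in the deficient libraries and 43.8, 48.2, 49.8, 47.1 and 45.1 CPM in WT. Its lowest deficient value, in replicate 2, was above the highest WT value (1.47-fold, 0.56 ± 0.0524 on the log2 scale, adjusted p = 8.3e-06), and it had the smallest adjusted p of all members.

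Sm F and Sm D3 were in between. Snrpf rose from 41.7 ± 4.05 to 55.2 ± 2.03 CPM (1.32-fold, adjusted p = 3.1e-04). Other annotated genes share 85.4% of its exon bases, mostly Ccdc38 on the opposite strand, and without knowing how strand was counted their reads cannot be told apart. Snrpd3 rose from 75.8 ± 7.05 to 101 ± 6.59 CPM (1.34-fold, adjusted p = 3.8e-04), but did not pass in the deposited FPKM, fragments scaled to gene length and library size and tested with limma (0.30 on the log2 scale, adjusted p = 0.060). Snrpg and Snrpd2, the genes of Sm G and Sm D2, rose 1.29-fold and 1.28-fold (adjusted p = 0.0011 and adjusted p = 0.0020). Snrpb, which encodes Sm B and B′ and was the most abundant of the ring per length, stood at 208, 190.0, 212, 204 and 197 CPM in deficient and 155, 182, 180.4, 187 and 169.8 CPM in WT libraries. It had the smallest rise of the ring, with the gap between deficient replicate 2 and WT replicate 4 only a few CPM wide (1.16-fold, 0.21 ± 0.0538 on the log2 scale, adjusted p = 0.0075). The processed pseudogene Snrpert was at 7.06 ± 1.16 CPM in deficient and 6.12 ± 0.536 CPM in WT libraries (adjusted p = 0.17) and overlapped between groups.

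In the ring that holds U6, 6 of 7 genes (for LSm2 to LSm8) rose and none fell, beside 21.9% and 23.1% of all genes. Adjusting for the macrophage score left 5, Lsm8 losing its call, and 5 rose without WT replicates 1 and 5. Lsm5 (ENSMUSG00000091625, chromosome 6, 56701063 to 56704710, minus strand), whose promoter is printed above, stood at 14.5, 12.8, 14.95, 15.1 and 15.2 CPM in deficient and 9.09, 10.04, 9.74, 11.2 and 11.1 CPM in WT libraries. All deficient values were above all WT values (1.42-fold, 0.50 ± 0.0788 on the log2 scale, adjusted p = 3.2e-04). Lsm6 stood at 61.7, 61.4, 68.7, 67.1 and 67.04 CPM in deficient and 42.8, 50.7, 52.5, 50.6 and 45.8 CPM in WT libraries, again without overlap (1.34-fold, 0.43 ± 0.0604 on the log2 scale, adjusted p = 1.5e-04). Lsm2 rose 1.35-fold (adjusted p = 0.0034), Lsm3 1.20-fold (adjusted p = 0.015) and Lsm8 1.17-fold (adjusted p = 0.0089).

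Lsm4 and Lsm7 were less certain. Lsm4 stood at 54.9, 40.95, 60.97, 58.2 and 55.9 CPM in deficient and 43.6, 42.1, 49.7, 42.9 and 47.2 CPM in WT libraries, and deficient replicate 2 lay below all WT libraries while its group's other values lay above them (1.20-fold, adjusted p = 0.039). Its call was lost without any one of deficient replicates 1, 3, 4 or 5 or of WT replicates 1, 2 or 4, with adjusted p-values of 0.065 to 0.096 (edgeR). Lsm7 was at 25.98 ± 1.54 CPM in deficient and 23.3 ± 2.26 CPM in WT libraries (adjusted p = 0.088), and it passed without deficient replicate 2 or without WT replicate 3.

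**Figure D2:**
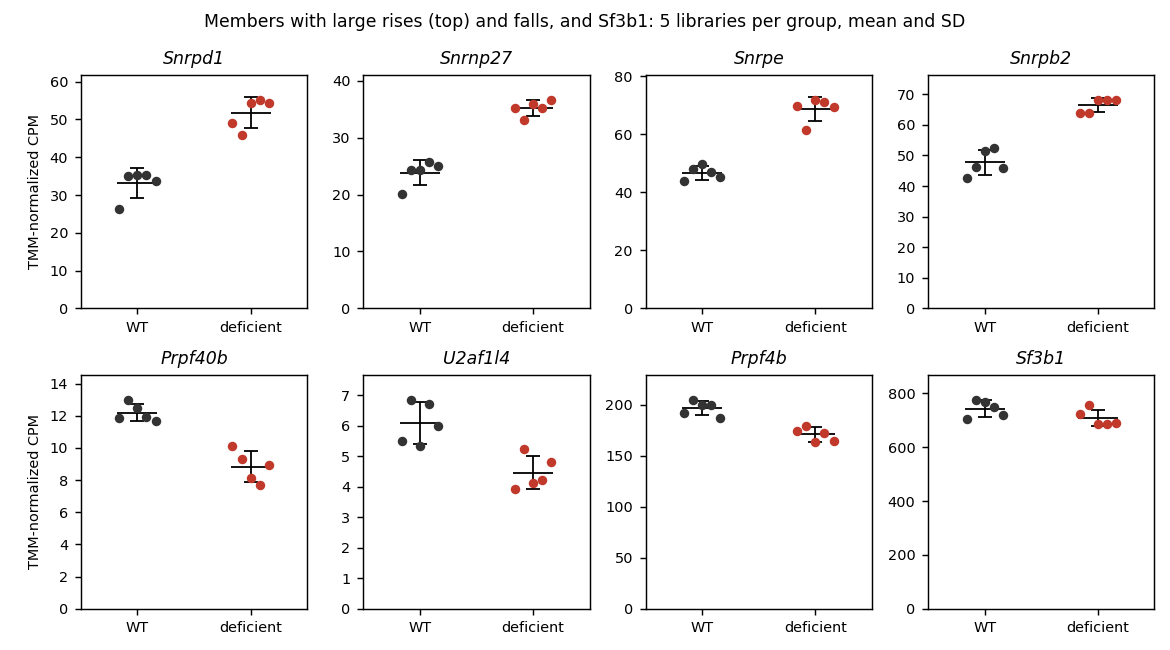
TMM-normalized CPM of 8 members in each of the 5 WT and 5 Ptbp1-deficient libraries (points), with the group mean and SD (bars). The groups do not overlap for the 4 upper genes or for Prpf40b, U2af1l4 and Prpf4b, and they do for Sf3b1.

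Of 6 genes of the U1 snRNP and its partners 1 rose and 2 fell (16.7% and 33.3%), beside 21.9% and 23.1% of all genes. So few genes cannot be set apart from those shares. Snrpc, the gene of the small U1-C protein that steadies base pairing at the 5′ splice site (ENSMUSG00000024217, chromosome 17, 27838150 to 27851968, plus strand), stood at 49.3, 43.5, 52.1, 52.1 and 51.5 CPM in deficient and 34.6, 38.9, 41.04, 40.2 and 37.8 CPM in WT libraries. The groups were separate (1.29-fold, 0.37 ± 0.0616 on the log2 scale, adjusted p = 5.1e-04). Snrnp70, which encodes the U1-70K protein, stood at 393, 388, 381, 393 and 401 CPM in deficient and 455, 442, 441, 413 and 393 CPM in WT libraries. Here WT replicate 5 lay within the deficient values and WT replicate 1 was the highest (-0.13 ± 0.0458 on the log2 scale, adjusted p = 0.034). This call was lost without any one of deficient replicates 1 to 4 or WT replicates 1 to 3 (adjusted p-values of 0.052 to 0.093, edgeR). Snrpa, the gene of the U1-A protein, was at 70.7 ± 5.37 CPM in deficient and 64.8 ± 5.09 CPM in WT libraries (adjusted p = 0.14).

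The largest fall among all members was that of Prpf40b, the gene of a U1-associated factor. Prpf40b (ENSMUSG00000023007, chromosome 15, 99295087 to 99317018, plus strand) stood at 10.1, 9.31, 8.13, 7.68 and 8.94 CPM in deficient and 11.9, 12.98, 12.5, 11.9 and 11.7 CPM in WT libraries. Each deficient value was below each WT value, and the deficient group stood at 72.5% of WT (-0.46 ± 0.0822 on the log2 scale, adjusted p = 7.6e-04). The FPKM values gave 2.11 ± 0.317 against 3.39 ± 0.225 FPKM (-0.50 on the log2 scale, adjusted p = 3.6e-04). Prpf39, another U1 partner, was at 129 ± 5.96 CPM in deficient and 140.3 ± 6.08 CPM in WT libraries (adjusted p = 0.051), and it passed as lower without deficient replicate 2 and in the FPKM values (-0.20 on the log2 scale, adjusted p = 0.011). It stayed not called in 17 of 24 alternatives. Its call also changed with upper-quartile scaling, limma-voom, a floor of 1 CPM, and without deficient replicates 1 and 2.

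In the U2 snRNP 7 of 11 genes rose (63.6%) and none fell, where 21.9% of all genes rose and 23.1% fell. The 4 that did not pass were Sf3b1 to Sf3b4. Without WT replicates 1 and 5, or without deficient replicates 1 and 2, 5 rose. Adjusting for the macrophage score left 3 higher and 1 lower, which was Sf3b1. Snrpb2, which encodes the U2-specific protein U2-B″ (ENSMUSG00000008333, chromosome 2, 143063039 to 143072853, plus strand), stood at 63.98, 63.9, 68.2, 68.1 and 68.2 CPM in deficient and 42.7, 46.3, 51.5, 52.5 and 46.04 CPM in WT libraries. Every deficient library exceeded every WT library by a wide gap (1.39-fold, 0.48 ± 0.0574 on the log2 scale, adjusted p = 4.8e-05). Its partner gene Snrpa1, for U2-A′, rose 1.24-fold (adjusted p = 0.0041), but it did not pass in FPKM (0.26 on the log2 scale, adjusted p = 0.053) or after adjusting for the macrophage score. Sf3b6, for the p14 protein that contacts the branch site, rose from 41.99 ± 2.54 to 53.3 ± 1.93 CPM (1.27-fold, adjusted p = 1.5e-04), but not in FPKM (0.15 on the log2 scale, adjusted p = 0.23). Sf3b5, for the smallest SF3B subunit, rose from 38.6 ± 3.79 to 48.01 ± 2.37 CPM (1.24-fold, adjusted p = 0.0027), but it did not pass after adjusting for the macrophage score.

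Among the SF3A genes, Sf3a3 rose from 41.6 ± 2.50 to 51.9 ± 1.41 CPM (0.32 on the log2 scale, adjusted p = 1.8e-04), without overlap. Sf3a1 (1.13-fold, adjusted p = 0.039) and Sf3a2 (1.09-fold, adjusted p = 0.047) rose with groups that overlapped, and their calls held in 9 and 7 of 24 alternatives. Both were lost without deficient replicate 2, 3 or 5 or WT replicate 1, 2 or 5, and Sf3a2 also without deficient replicate 1. Sf3b1, the large scaffold that clamps the branch site and the SF3B gene with the highest count, stood at 722, 755, 687, 686 and 689.8 CPM in deficient and 706, 775, 767, 750.4 and 718 CPM in WT libraries. These values overlapped (a log2 difference of -0.07, adjusted p = 0.24), though Sf3b1 passed as lower with limma-voom, another test of the counts. The FPKM values put Sf3b1 lower in the deficient group, at 121 ± 4.99 against 138 ± 4.02 FPKM (-0.18 on the log2 scale, adjusted p = 0.0035, limma on log2 of FPKM + 1). Sf3b2, Sf3b3 and Sf3b4 had log2 fold changes of 0.10, 0.11 and 0.15 and did not pass, Sf3b4 passing as higher without WT replicate 4.

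Of 3 genes of U2AF, the reader of the pyrimidine tract and the AG, none rose and 1 fell. So few genes cannot be set apart from the shares of all genes, 21.9% higher and 23.1% lower. U2af2, for the large subunit that binds the pyrimidine tract, stood at 347, 331, 322, 331 and 322 CPM in deficient and 311, 349, 354, 340.0 and 351 CPM in WT libraries. WT replicate 1 was the lowest of all 10 and the groups overlapped (a log2 difference of -0.04, adjusted p = 0.45). U2af1, for the small subunit, was at 65.4 ± 2.49 CPM in deficient and 59.9 ± 5.16 CPM in WT libraries (adjusted p = 0.097), and it passed as higher without WT replicate 5. In the FPKM values U2af2 was lower (-0.14 on the log2 scale, adjusted p = 0.013) and U2af1 higher (0.16 on the log2 scale, adjusted p = 0.014).

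U2af1l4, which encodes a U2af1-like protein also called U2AF26, stood at 3.91, 5.24, 4.13, 4.22 and 4.81 CPM in deficient and 5.48, 6.84, 5.34, 6.71 and 5.98 CPM in WT libraries (ENSMUSG00000078765, chromosome 7, 30563301 to 30565365, plus strand). The groups did not overlap, though deficient replicate 2 and WT replicate 3 were close (73.5% of WT, -0.44 ± 0.113 on the log2 scale, adjusted p = 0.0074). In the FPKM values it did not pass, at 10.2 ± 1.04 against 10.8 ± 2.48 FPKM (-0.06 on the log2 scale, adjusted p = 0.73). Other annotated genes share 66.1% of its exon bases, mostly Gm49396 on the same strand, and ambiguous reads are listed in the table apart from the genes.

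Of 11 genes of the tri-snRNP and the factors that join with it, 4 were higher, 1 lower and 6 not called. These were 36.4% higher and 9.09% lower, beside 27.6% and 26.4% of genes within the members' range of mean CPM. Of the 11 genes 10 had positive log2 fold changes. Snrnp27, which encodes a small tri-snRNP protein (ENSMUSG00000001158, chromosome 6, 86675151 to 86684522, minus strand), stood at 35.2, 33.0, 35.9, 35.2 and 36.7 CPM in deficient and 20.01, 24.3, 24.3, 25.7 and 24.9 CPM in WT libraries. The lowest deficient library was well above the highest WT library (1.48-fold, 0.56 ± 0.0653 on the log2 scale, adjusted p = 3.8e-05), a rise next to that of Snrpd1 in size. Prpf38a was also higher, 1.37-fold, having gone from 28.3 ± 3.07 to 38.8 ± 1.36 CPM (adjusted p = 2.8e-04). Prpf31, which holds U4/U6 to U5, was 1.26-fold higher, from 44.6 ± 2.55 to 56.1 ± 2.28 CPM (adjusted p = 1.7e-04). Prpf38b, the most abundant of this role per length, was at 431 ± 19.9 CPM in deficient and 414 ± 13.98 CPM in WT libraries (adjusted p = 0.29).

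Prpf8, the gene of the large protein at the catalytic centre, was 1.13-fold higher, from 360.2 ± 28.3 to 407 ± 11.2 CPM (adjusted p = 0.021). Its call was lost in the FPKM values (0.13 on the log2 scale, adjusted p = 0.19) and without WT replicates 1 and 5. The Prpf8 call was also lost without deficient replicates 1 and 2 and after adjusting for the macrophage score. Snrnp200, for the helicase that unwinds U4 from U6, was at 228 ± 6.80 CPM in deficient and 212 ± 14.6 CPM in WT libraries (adjusted p = 0.10), and it passed as higher without WT replicate 3. Prpf3, Prpf4 and Prpf6 had log2 fold changes of 0.03, 0.02 and 0.06 and were not called. Snrnp40 had few counts, 1.58 ± 0.253 CPM in deficient and 1.39 ± 0.601 CPM in WT libraries, against 15.7 ± 0.229 and 13.2 ± 1.11 FPKM. Its CPM per unit of FPKM and kilobase was 0.026 in WT, where the median member was at 0.644. The gene models behind the counts are not given in the sources used, so this CPM may not stand for the whole gene. In the FPKM values it was higher (0.23 on the log2 scale, adjusted p = 0.0053).

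Prpf4b, which encodes a kinase that phosphorylates tri-snRNP proteins, fell. It stood at 175, 179.8, 164, 173 and 164 CPM in deficient and 192, 205, 200.5, 200.2 and 188 CPM in WT libraries (ENSMUSG00000021413, chromosome 13, 34875302 to 34906064, plus strand). No deficient library reached the lowest WT library, replicate 5 (86.8% of WT, -0.20 ± 0.0406 on the log2 scale, adjusted p = 0.0016). The FPKM values gave 26.5 ± 1.36 against 33.4 ± 0.952 FPKM (-0.32 on the log2 scale, adjusted p = 1.6e-04).

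Both genes of the Prp19 and second-step role rose, where 21.9% of all genes did, and 1 of them after adjusting for the macrophage score. Prpf19, the ubiquitin ligase at the core of the Prp19 complex, stood at 128, 122, 129, 127 and 128 CPM in deficient and 97.8, 108, 107, 109 and 101 CPM in WT libraries. The groups were separate and the deficient libraries close together (1.22-fold, 0.28 ± 0.0403 on the log2 scale, adjusted p = 1.6e-04). Prpf18, a factor of the second catalytic step, rose from 89.1 ± 7.26 to 107 ± 4.42 CPM (1.20-fold, adjusted p = 0.0033), but not in FPKM (0.11 on the log2 scale, adjusted p = 0.20).

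**Figure D3:**
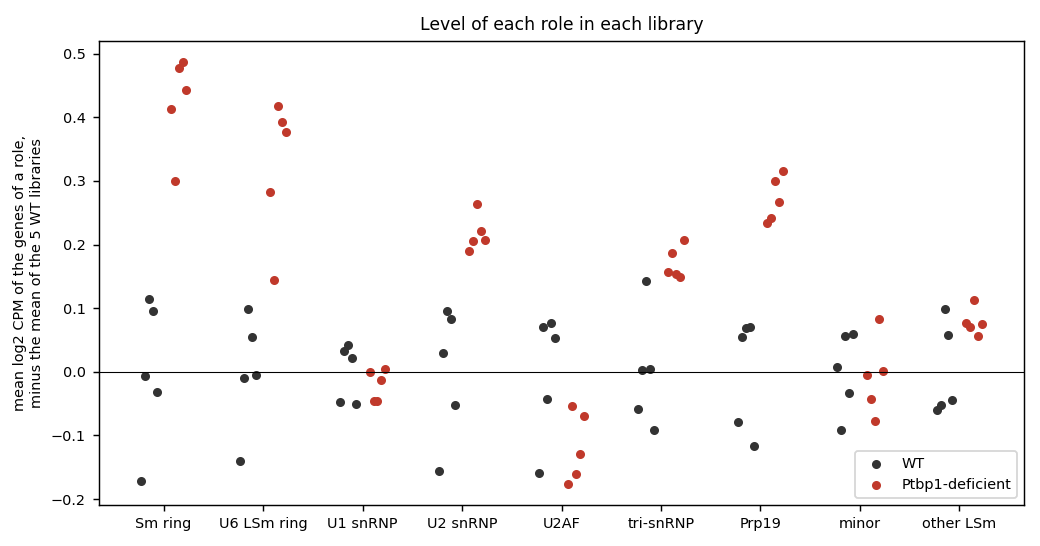
Mean log2 CPM of the genes of each role in each library, minus the mean of the 5 WT libraries (y axis, log2 units). The Sm ring, the U6 LSm ring, U2 snRNP, tri-snRNP and Prp19 roles have all 5 deficient libraries above all WT libraries, and the U1, U2AF, minor and other LSm roles overlap.

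Of 3 members in the minor spliceosome, which removes a rare class of introns with U11 and U12, none rose and 1 fell. Snrnp48, for a U11/U12 protein (ENSMUSG00000021431, chromosome 13, 38204938 to 38227665, plus strand), stood at 96.4, 94.1, 86.7, 94.7 and 95.1 CPM in deficient and 111, 111, 108, 106 and 98.9 CPM in WT libraries. Deficient replicate 3 was the lowest, and no deficient library reached WT replicate 5, the lowest WT value (87.4% of WT, -0.19 ± 0.0440 on the log2 scale, adjusted p = 0.0037). Snrnp25 and Snrnp35 were at log2 fold changes of 0.02 and 0.15 (adjusted p = 0.86 and adjusted p = 0.23). Among the 9 other measured genes of the minor spliceosome, which the symbol rule did not take, 1 rose (Zcrb1) and 3 fell (Zrsr1, Zrsr2 and Rbm48). Over all genes tested 21.9% rose and 23.1% fell, and counts over so few genes cannot be set apart from those shares. Zrsr1, a U2AF-like factor, fell from 17.3 ± 1.64 to 8.77 ± 0.523 CPM (50.7% of WT, -0.98 ± 0.0780 on the log2 scale, adjusted p = 2.5e-06), Zrsr2 from 59.3 ± 3.24 to 51.6 ± 2.23 CPM (adjusted p = 0.0046) and Rbm48 from 14.5 ± 1.26 to 11.7 ± 0.874 CPM (adjusted p = 0.0073). Zrsr1 and Zrsr2 are related copies between which the counting could split reads, so their separate values are uncertain.

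LSm proteins outside the U6 ring serve other RNAs, and 2 of 6 genes rose (33.3%). Among genes within the members' range of mean CPM 27.6% rose, so this count is near that share. Lsm1, which replaces LSm8 in the cytoplasmic ring that promotes mRNA decay, stood at 17.2, 16.3, 17.2, 18.1 and 19.1 CPM in deficient and 12.8, 13.5, 14.7, 14.2 and 13.4 CPM in WT libraries. All deficient values were higher (1.28-fold, 0.36 ± 0.0631 on the log2 scale, adjusted p = 7.3e-04). Lsm12 rose from 34.1 ± 2.12 to 41.5 ± 2.81 CPM (1.22-fold, adjusted p = 0.0020), but not in the FPKM values (0.11 on the log2 scale, adjusted p = 0.17). Lsm14a, a P-body protein gene and the most abundant of these per length, was at 124 ± 2.53 CPM in deficient and 125 ± 5.64 CPM in WT libraries (adjusted p = 0.88). Lsm10 and Lsm11, whose products belong to the U7 snRNP of histone mRNA processing, were at log2 fold changes of 0.14 and -0.19 (adjusted p = 0.082 and adjusted p = 0.14), and Lsm14b at -0.12 (adjusted p = 0.081). Lsm11 passed as lower without WT replicate 5 and Lsm14b without WT replicate 2.

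Other genes of the splicing machinery, from lists that the symbol rule did not use, moved both ways. Of 82 tested, 29 rose and 12 fell (35.4% and 14.6%), where 21.9% of all genes rose and 23.1% fell. Their median of 0.081 on the log2 scale was 0.031 without WT replicates 1 and 5, where 20 rose and 14 fell, 0.037 with upper-quartile scaling and 0.041 after adjusting for the macrophage score. In snRNP assembly, where the SMN complex loads the Sm ring, 6 of 16 rose and 4 fell (Ddx20, Gemin7, Snupn and Tgs1). Gemin6 was 1.76-fold higher, from 4.61 ± 0.559 to 8.14 ± 0.430 CPM (adjusted p = 3.9e-05), and Smn1 rose from 17.1 ± 1.00 to 21.2 ± 0.776 CPM (adjusted p = 7.8e-04). Gemin7, whose product pairs with Gemin6, fell from 38.7 ± 1.29 to 28.9 ± 0.610 CPM (74.5% of WT, adjusted p = 6.5e-06). Of 12 U2 partners 5 rose and 1 fell (Htatsf1), the rises led by Phf5a, an SF3B subunit without the Sf3b prefix (from 32.1 ± 2.06 to 40.4 ± 1.54 CPM, adjusted p = 2.7e-04), Rbm17 (1.17-fold) and Sugp1 (1.13-fold).

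Of 16 U5 and tri-snRNP partners 7 rose and 2 fell (Ddx23 and Mfap1b). They included Eftud2, the GTPase of the U5 snRNP (from 87.9 ± 4.18 to 108 ± 2.63 CPM, adjusted p = 1.3e-04), the ubiquitin-like Ubl5 (1.34-fold) and Ik (1.17-fold), all higher. Of 29 genes of the Prp19 complex and the active spliceosome 10 rose and 2 fell (Dhx16 and Rnf113a2), among them the risen Cwc15 (1.31-fold), Ppil1 (1.40-fold) and Cwc27 (1.34-fold). Genes that fell were named here after their values were seen. Without WT replicates 1 and 5, 7 of the 29 rose and 6 fell, and without deficient replicates 1 and 2, 3 of the 12 U2 partners rose. After adjusting for the macrophage score 13 of the 82 rose and 10 fell, where 17.1% of all genes rose and 17.3% fell. Of these 13, 3 were in snRNP assembly, 2 among U2 partners, 4 among U5 and tri-snRNP partners and 4 of the 29. In the FPKM values 12 rose, where 20.3% of all genes with FPKM rose.

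Levels can be compared between genes only per length. In WT the most abundant members by FPKM were U2af2 (146 ± 5.07), Sf3b1 (138 ± 4.02) and Snrpb (137 ± 6.81), the latter pair nearly equal and within their SD. Next came Prpf38b (97.1 ± 5.45), then Snrnp70 (80.9 ± 6.56), Sf3b2 (80.2 ± 3.08) and Snrpe (75.9 ± 6.85), which lay within their SD of one another. In the deficient group Snrpb was first (151 ± 6.19), and Snrpe (106 ± 5.33) was above Prpf38b (105 ± 6.43) by less than the SD. Within the Sm ring FPKM in WT ran from 26.4 ± 4.80 for Snrpd3 to that of Snrpb, although its proteins are present in equal numbers in a ring. The lowest members were Prpf40b (3.39 ± 0.225) and Lsm11 (1.57 ± 0.226) in WT.

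The counts and the FPKM values gave the same direction for the members called in both. Of the 29 that rose in the counts 21 also passed as higher in FPKM and 8 did not pass, and of the 5 that fell 3 passed as lower. No call was of opposite sign. Members not called in the counts included 2 higher in FPKM (U2af1 and Snrnp40) and 3 lower (Prpf39, Sf3b1 and U2af2). Lsm10 had a positive log2 fold change in the counts and a negative one in FPKM (-0.31 on the log2 scale, adjusted p = 0.24), and passed in neither.

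**Figure D4:**
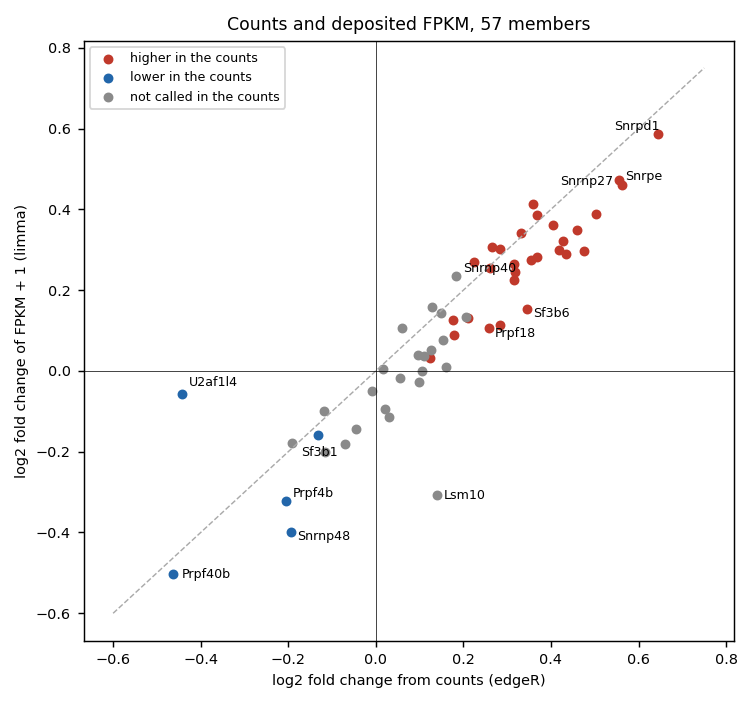
Log2 fold change of each member from the counts (x axis, edgeR) and from the deposited FPKM (y axis, limma on log2 of FPKM + 1), with the line of equality dashed. Most members lie below the line, and U2af1l4 and Lsm10 lie farthest from it.

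Longer members tended to have lower fold changes. Over the 56 protein-coding members the Spearman correlation between the length of all annotated exons and the log2 fold change was -0.46, and over the 11009 protein-coding genes in the same CPM range it was -0.14. These are correlations across genes of the same 10 libraries, and genes are not independent replicates. Counted by length with Snrpert included, 13 of the 19 members of 2000 to 4000 bases rose and none fell, where 32.8% of the protein-coding genes of that length and CPM range rose and 22.4% fell. Of the 6 members longer than 8000 bases none rose and 2 fell, where 21.9% of such genes rose and 36.9% fell. Over these 11009 genes the median log2 fold change went from 0.19 for those up to 1000 bases to -0.070 for those longer than 8000 bases. The part of length in the members' differences was not tested.

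**Figure D5:**
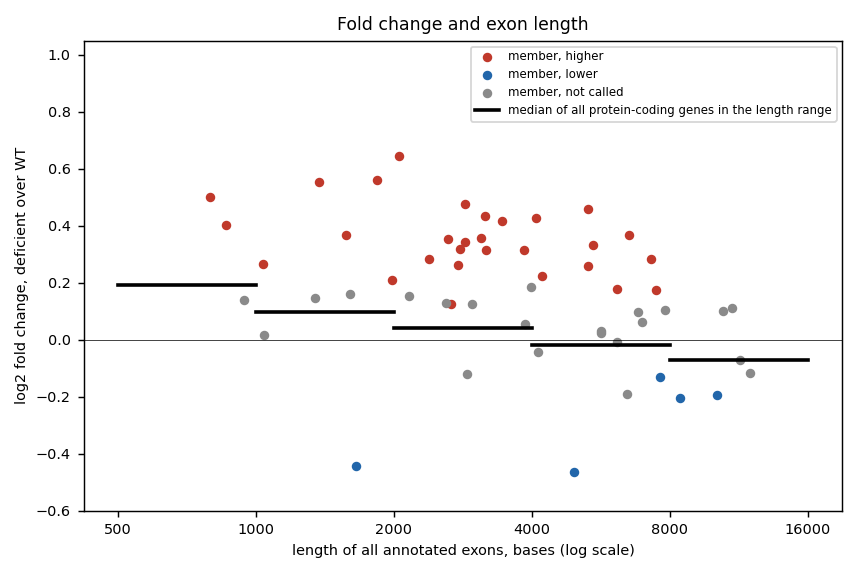
Log2 fold change (y axis) of the 56 tested protein-coding members against the length of all annotated exons in bases (x axis, log scale), with the median of all protein-coding genes in the same range of CPM for each range of length (black lines). The medians fall from 0.19 to -0.070. The 19 members between 2000 and 4000 bases have a median of 0.31, where the line of their range is at 0.043.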

How the data were processed

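Poly(A) RNA of 10 dendritic cell libraries was sequenced as paired 150 bp reads, per the labels' protocols. HISAT2, StringTie and DESeq2 are named in the submitters' processing notes without versions, beside the human build GRCh38, whereas the genes carry mouse Ensembl identifiers. No source used here names the counting tool or its strand setting. The deposited count table holds raw counts for 19178 genes with at least 2 counts in every library; gene rows hold 69.4% to 74.1% of counts, reads outside genes 17.2% to 22.2%, ambiguous reads 1.78% to 1.94% and not unique reads 4.51% to 5.08%. The deposited FPKM table by the authors holds 11968 genes after 10 repeated identifiers were summed. Symbols and coordinates came from GENCODE M21 (GRCm38), which matched 19049 identifiers.

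The counts were filtered with filterByExpr (930 genes removed), TMM-normalized and tested with edgeR 4.0.16 in R 4.3.3, genotype being the only term; an adjusted p under 0.05 was called. CPM are means ± SD, n = 5. The FPKM were tested with limma 3.58.1 on log2(FPKM + 1), which understates changes of low genes; their depth is unknown. Member and list scores are mean log2 CPM with a prior count of 2. The fit was tested on simulated data. Members and lists were chosen with earlier results of these data known. The genes named are, per role, up to 4 called members with the smallest adjusted p and the one with the highest FPKM, the 5 largest rises and falls, and up to 3 called genes of each other list; further members were named after their values were seen. Alternatives were RLE and upper-quartile scaling, DESeq2 1.42.0, limma-voom, other filters, a replicate block, score covariates, FPKM pseudocounts, an adjusted p under 0.01 and libraries left out. No pair of libraries was identical. The values of 1 member are not reported here, though it stays in the counts.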

Additional observations from a re-analysis of the deposited data

Results flagged for a closer look

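In 8 of the 66 groups of 5 libraries screened (33 genes, Ptbp1 and the named members), a single library stood apart from the others of its group by Dixon's criterion, which chance meets in about 1 group in 20. WT replicate 1 was the lowest WT library for 3 members: Snrpd1 at 26.3 CPM with the next WT value at 33.7 CPM, Sf3b5 at 32.0 CPM with the next at 39.0 CPM, and Snrnp27 at 20.01 CPM with the next at 24.3 CPM. Deficient replicate 2 was the lowest deficient library for Prpf19, at 122 CPM against 127 to 129 CPM in the others, and for Snrpe, at 61.5 CPM against 69.5 to 71.9 CPM. Deficient replicate 3 was the lowest for Snrnp48, at 86.7 CPM against 94.1 to 96.4 CPM. WT replicate 5 was the highest WT library for Prpf38b, at 438 CPM against 405 to 411 CPM. Deficient replicate 4 was the highest for the pseudogene Snrpert, at 9.12 CPM against 6.30 to 6.68 CPM. The cause of these values was not tested.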

How the results depend on the processing

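The Ptbp1 fall kept its direction and call in all alternatives tried, at log2 fold changes of -2.52 to -1.18, and leaving out single libraries gave -2.02 to -1.96. Leaving out single libraries, 26 to 31 members rose and 4 to 6 fell, with median log2 fold changes of 0.14 to 0.21, and 23 to 30 other splicing genes rose and 10 to 12 fell. In those fits 19.3% to 22.5% of all genes rose and 19.9% to 22.9% fell. RLE and upper-quartile scaling and DESeq2 gave 26 to 29 members higher and 5 to 7 lower, and moved the median of all genes by less than 0.1. There 18.9% to 22.3% of all genes were higher and 22.8% to 26.6% lower. With limma-voom 27 of the 29 risen members kept their call and 8 members fell, where 24.3% of all genes rose and 25.8% fell. Of the other splicing genes, 13 rose with the macrophage score as a covariate, 12 in FPKM with pseudocounts of 1 and of 0.1, and 17 at an adjusted p under 0.01. The shares of all genes that rose in these settings were 17.1%, 20.3% with either pseudocount, and 15.6%. Without WT replicates 1 and 5 the median of the members was 0.11. The replicate block gave 29 members higher and 4 lower, Snrnp70 (adjusted p = 0.076) and Sf3a2 losing their calls and U2af1 gaining one, and 25 other splicing genes higher and 8 lower. With that block 20.6% of all genes were higher and 20.7% lower. The deviations of same-numbered libraries from their group means correlated at -0.096 to 0.11, and 1 of the 5 deficient libraries correlated best with its own number, so the numbers were not taken to pair the libraries.

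The cell cycle score as a covariate, which genotype nearly fixes, left 0 members higher and 0 lower and 0 other splicing genes in either direction, and turned the members' median log2 fold change to -0.21. Of the called members named by the naming rule, 19 changed the sign of their log2 fold change in that fit, none called. Their values were Lsm1 -0.14, Lsm12 -0.17, Prpf18 -0.17, Snrpd1 -0.23, Snrpf -0.37, Snrpd3 -0.068, Snrpb -0.22, Snrpc -0.18, Snrnp70 0.025, Snrpb2 -0.19, Sf3b6 -0.095, Sf3b5 -0.28, Snrnp27 -0.090, Prpf31 -0.15, Prpf38a -0.19, Lsm6 -0.17, Lsm2 -0.31, Lsm8 -0.072 and Lsm4 -0.17. The other risen members named by that rule, Snrpe, Lsm5, Sf3a3 and Prpf19, stayed above 0 in every alternative, with lowest values of 0.21, 0.032, 0.018 and 0.011. The risen members that rule did not name all fell below 0 in some alternative. Their lowest values were Sf3a1 -0.535, Lsm3 -0.535, Snrpg -0.39, Snrpa1 -0.33, Prpf8 -0.33, Snrpd2 -0.26 and Sf3a2 -0.26. The other fallen members, Prpf40b, U2af1l4, Prpf4b and Snrnp48, stayed below 0 in every alternative. Outside this covariate, 16 of the 29 risen members (Lsm1, Lsm2, Lsm5, Lsm6, Prpf19, Prpf31, Prpf38a, Sf3a3, Snrnp27, Snrpb2, Snrpc, Snrpd1, Snrpd2, Snrpe, Snrpf and Snrpg) and 3 of the 5 fallen (Prpf40b, Prpf4b and Snrnp48) kept their call in all 23 other alternatives. The fold change of Snrnp40, whose count is low beside its FPKM, had an SE of 0.261 on the log2 scale.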
